A study of Mus musculus with 6 samples.

Results

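Interferon-stimulated genes are the genes that a cell switches on after it senses an interferon. A fixed set of 42 of them was followed in natural killer (NK) cells of mouse spleen, out of 37991 genes in the count tables. Members were picked by name as known interferon-induced genes, a rule that uses no measured value. Earlier results of these data were known when they were picked. All 42 symbols matched 1 row each, and 38 passed the filter on low counts that kept 11724 genes for testing. The cells carried CD27 and CD11b, surface proteins of an intermediate stage of NK maturation, and came from mice of the C57BL6 background. They formed 2 groups: 3 libraries with the genotype wildtype and 3 with the genotype Rroid deficient, Rroid being a noncoding RNA transcribed close to Id2. No treatment, infection, age or added interferon is given in the labels, nor the form of the Rroid allele. They also do not say that the libraries came from separate mice. The p-values therefore set the difference between groups only against the spread of these samples, and that spread may be technical.

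Type I interferons signal through a receptor joined to the kinases JAK1 and TYK2, which activate transcription factors of the STAT family. With IRF9 these bind the interferon-stimulated response element (ISRE). Interferon gamma, which NK cells make themselves, acts through another element, the gamma-activated site (GAS). Without infection most tissues hold a low, tonic level of this program, and in NK cells type I interferon is known to raise cytotoxicity.

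Many of the members have ISRE or GAS letters in their promoters, and 4 stretches that hold such letters are shown. Each runs from 150 to 11 bases before a RefSeq transcription start on build GRCm38.p6, in the direction of the gene. Capitals mark matches to the ISRE letters (GAAA, any 2 bases, GAAA, on either strand) or to the GAS letters (TTCNNNGAA, its own reverse complement), and neighbouring matches can overlap. Isg15 lies at chr4:156200829-156200968 on the minus strand, with 3 ISRE matches that overlap, the first 78 bases before the start. Bst2 lies at chr8:71537483-71537622 on the minus strand, with a GAS match 136 bases before the start that overlaps the first of 2 ISRE matches. Gbp7 lies at chr3:142530186-142530325 on the plus strand, with 2 GAS matches and 1 ISRE match. Trim30a lies at chr7:104465204-104465343 on the minus strand, with 1 ISRE match 36 bases before the start.
Isg15: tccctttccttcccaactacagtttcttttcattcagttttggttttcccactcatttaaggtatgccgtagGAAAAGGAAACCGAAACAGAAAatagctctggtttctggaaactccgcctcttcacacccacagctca
Bst2: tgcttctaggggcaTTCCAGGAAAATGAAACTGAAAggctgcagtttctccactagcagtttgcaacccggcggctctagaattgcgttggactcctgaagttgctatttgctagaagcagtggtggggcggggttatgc
Gbp7: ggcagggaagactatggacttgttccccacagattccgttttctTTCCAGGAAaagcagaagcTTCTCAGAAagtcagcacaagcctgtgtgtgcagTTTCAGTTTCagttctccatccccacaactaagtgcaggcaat
Trim30a: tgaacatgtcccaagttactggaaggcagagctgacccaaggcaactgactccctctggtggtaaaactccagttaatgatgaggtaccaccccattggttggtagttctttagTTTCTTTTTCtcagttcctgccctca

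Promoter sequence, 250 bases before to 50 after a start, was at hand for 32 of the 42 members. An ISRE match was present in 15 of these 32 (46.9%), against 3.99% of 27025 genes with a promoter. A GAS match was present in 11 of 32 (34.4%), against 9.55% of all genes. With looser ISRE letters (GAAA, any 3 bases, AAA) the shares were 71.9% and 14.2%. Members with an ISRE match among those tested had 7 positive and 8 negative log2 fold changes (median -0.03), and those without had 9 positive and 7 negative (median 0.05). A match is a description of letters and not a measured binding site.

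**Figure D1:**
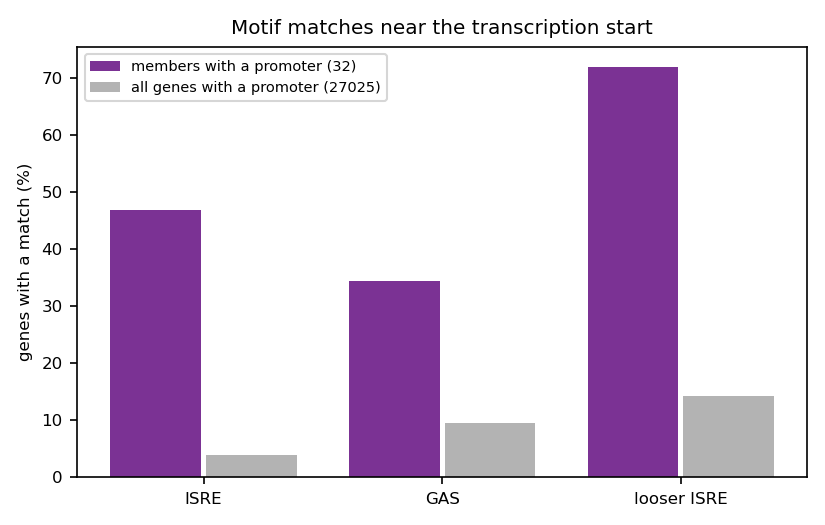
Share of genes (%) with at least 1 match to the ISRE letters, the GAS letters or the looser ISRE letters, for the 32 members and for all 27025 genes with a promoter sequence. The ISRE bars stand at 46.9% for the members and 3.99% for all genes.

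Reads assigned to genes ranged from 5823626 to 9216430 per library. Values are CPM, counts relative to library sizes scaled by TMM, a method that corrects for differing composition. Fold changes set deficient against wildtype libraries. A count of 3, the most that a count of 0 allows, was 0.322 to 0.489 CPM depending on the library, which covers counting error only. Id2 checks the labels: it had wildtype values of 468, 338 and 341 CPM and deficient values of 38.9, 66.7 and 81.2. Its fold change on the log2 scale was -2.62 (SE 0.30), with an adjusted p of 0.0308 by edgeR. Genes of the tested set without a single read were 5.63% in wildtype library 1 and 5.57% in deficient library 1, and 0.230% to 2.43% in the others. Of the NK markers, all 10 were tested and present, 3 with a positive and 7 with a negative fold change, with Ncr1 at 1015 ± 8.66 and 940 ± 61.5 CPM (SD, n = 3). Every deficient library was below every wildtype one for Klrk1, Klrd1 and Klrb1c, 3 of the 10 markers, where 6.33% of all tested genes did so. Their log2 fold changes were -0.36, -0.28 and -0.33. Klrb1c alone of the 10 had an unadjusted edgeR p under 0.05, which 5.29% of all genes reached. The 10 markers summed to 6901 to 7930 CPM in wildtype and 6308 to 6935 in deficient libraries.

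Some markers of other cells were present, and several lists summed higher in deficient libraries. The summed T cell markers, 8 genes, had 60.1 to 81.3 CPM in wildtype libraries and 213 to 264 in deficient ones, with Cd8a at 0 and Cd3e at 0 to 3 counts. Cd4 had 57 counts in wildtype 1 and none elsewhere, and Cd5 had at most 4 counts in a library. Every deficient library was above for Cd3g (6.22 ± 1.91 and 63.4 ± 7.44 CPM), Cd3d (6.79 ± 1.85 and 49.3 ± 22.4) and Trbc2 (51.4 ± 10.4 and 111 ± 17.3). These were 3 of the 4 T cell markers tested, where 6.03% of all tested genes did so, and none of them passed in edgeR. The 7 neutrophil and monocyte markers summed to 925 to 1001 and 1045 to 1415 CPM, nearly all from Ccr2 (932 ± 37.1 and 1108 ± 217) and Ly6c2 (27.2 ± 9.68 and 64.6 ± 15.1), with S100a8 and Retnlg at 0. The 6 B cell markers summed to 226 to 333 and 318 to 611 CPM, nearly all from Ighm (268 ± 55.7 and 442 ± 147), with Pax5 at 0. The 11 markers of dendritic cells and macrophages summed to 17.8 to 41.1 and 33.3 to 45.9 CPM, and 4 of them, among them Flt3 and Clec9a, were at 0. Of the 3 tested, 2 had negative fold changes. Cd68 was higher in every deficient library, at 2.25, 11.3 and 1.10 CPM in wildtype and 30.4, 21.0 and 19.6 in deficient libraries (edgeR adjusted p = 0.914). The 4 erythroid genes in the tables summed to 8.38 to 18.4 and 1.14 to 7.05 CPM.

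NK cells of both genotypes held interferon-stimulated transcripts, and no member passed the test over all genes. Of the 38 members tested, 0 passed the quasi-likelihood test of edgeR after Benjamini-Hochberg adjustment (threshold 0.05), against 2 of 11724 genes, or 0.0171%. The smallest adjusted p of a member was 0.914. DESeq2 on the same genes also called 0 members, against 0.569% of all genes with an adjusted p, and limma-voom called 0. An unadjusted edgeR p under 0.05 was reached by 2 members, Ifi44 and Trim30a, and by 5.29% of all genes. Positive log2 fold changes numbered 21 and negative ones 17. Their median was 0.05, beside 0.02 over all tested genes. The summed CPM of the 42 members was 2873, 3426 and 3165 in wildtype and 3502, 3631 and 3255 in deficient libraries, so that wildtype 2 lay above deficient 3.

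**Figure D2:**
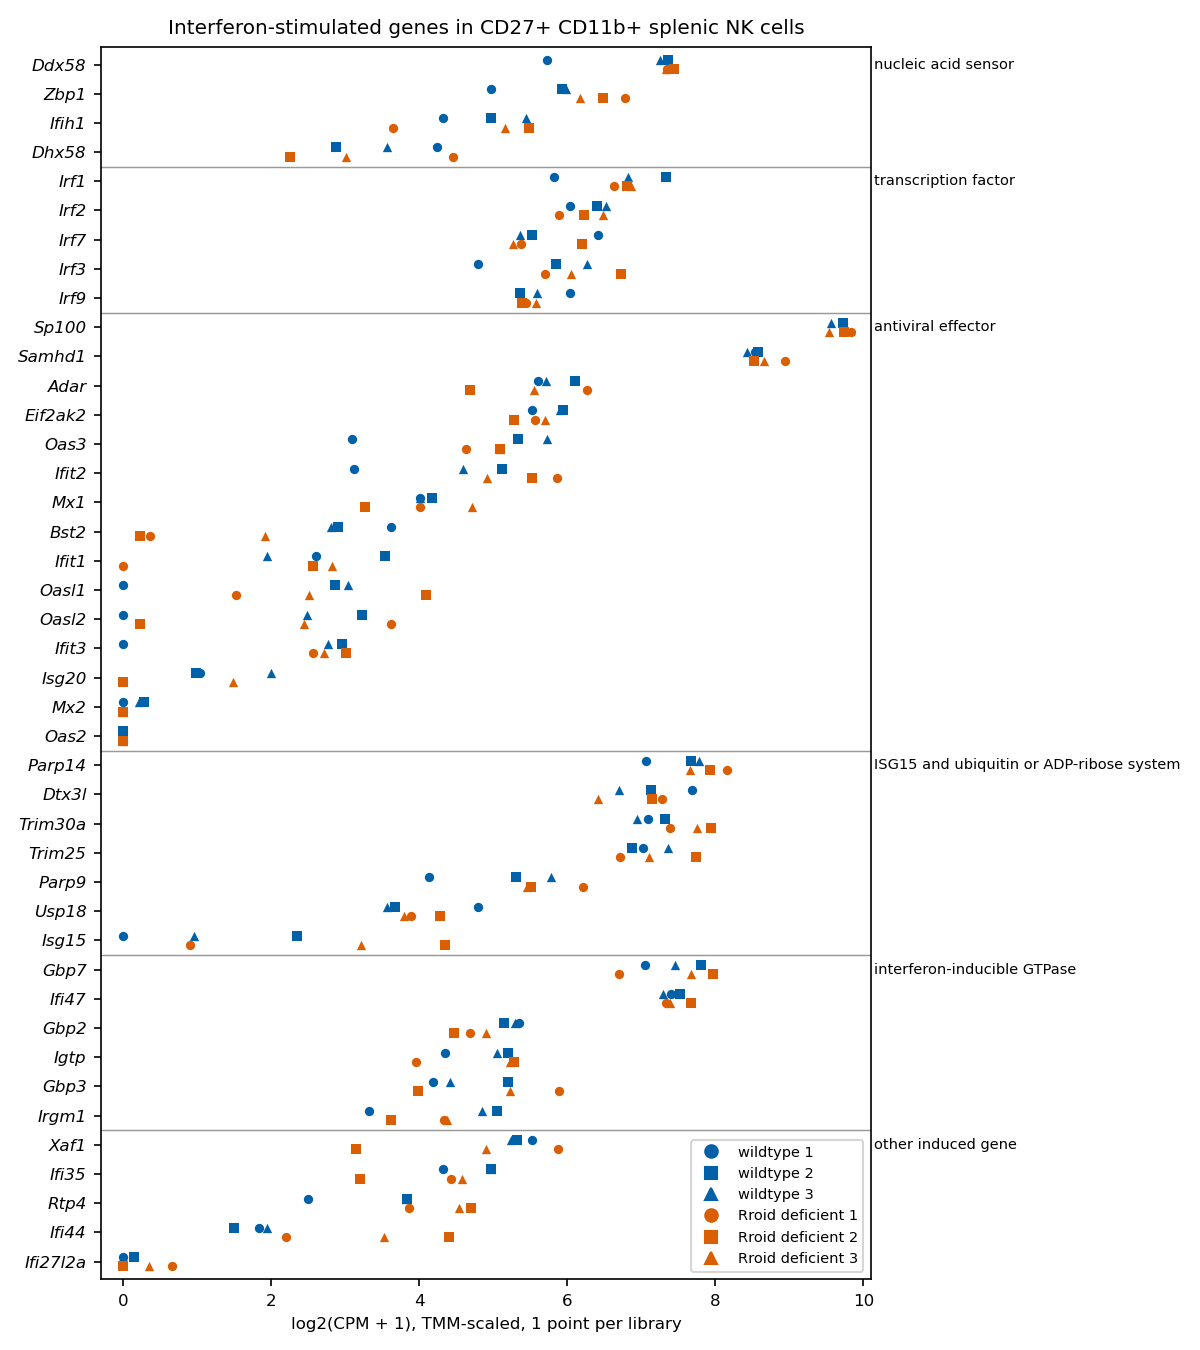
Level of each of the 42 members in log2(CPM + 1), 1 point per library (blue wildtype, orange Rroid deficient, marker shape for the library number), grouped by role. Points of both colours are intermixed in most rows, Bst2 has its 3 orange points below its blue points, and Oas2 is at 0 throughout.

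The libraries of the genotypes did not overlap for 6 members. All deficient libraries lay above all wildtype libraries for Ifi44, Rtp4, Trim30a and Zbp1, 4 of 38 members, where 6.03% of all tested genes did so. All lay below for Gbp2 and Bst2, 2 of 38, where 6.33% of all genes did so. On CPM without TMM scaling Rtp4 and Trim30a overlapped, and the other 4 members did not. Summed T cell markers separated the genotypes too, at 60.1 to 81.3 CPM against 213 to 264, mostly from Cd3g, Cd3d and Trbc2. In the deficient libraries Cd3e, Cd4 and Cd8a had no count. Whether RNA from other cells contributed to the values of these 6 members was not tested.

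The median SE of a member's log2 fold change was 0.51. For 9 members the 95% interval lay within a 2-fold change in either direction: Sp100, Samhd1, Ifi47, Parp14, Irf1, Irf2, Gbp7, Trim25 and Dtx3l. For the other 29 the interval reached a 2-fold change or more.

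**Figure D3:**
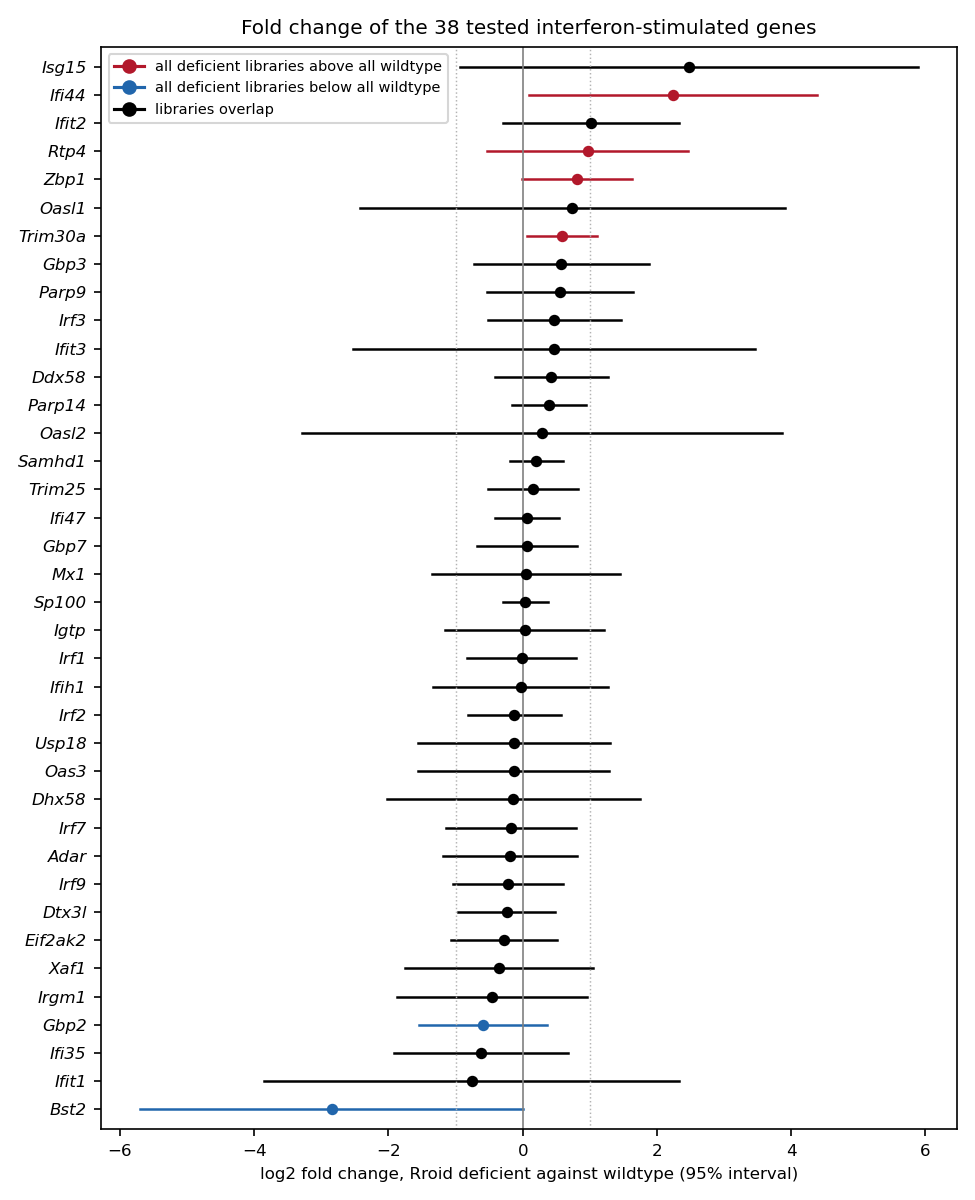
Log2 fold change of each tested member with its 95% interval from edgeR; dotted lines mark a 2-fold change in either direction, red and blue genes had all deficient libraries above or below all wildtype ones, and black genes overlapped. Intervals are narrow for abundant genes such as Sp100 (-0.30 to 0.37) and wide for scarce ones such as Isg15 (-0.94 to 5.89).

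**Figure D4:**
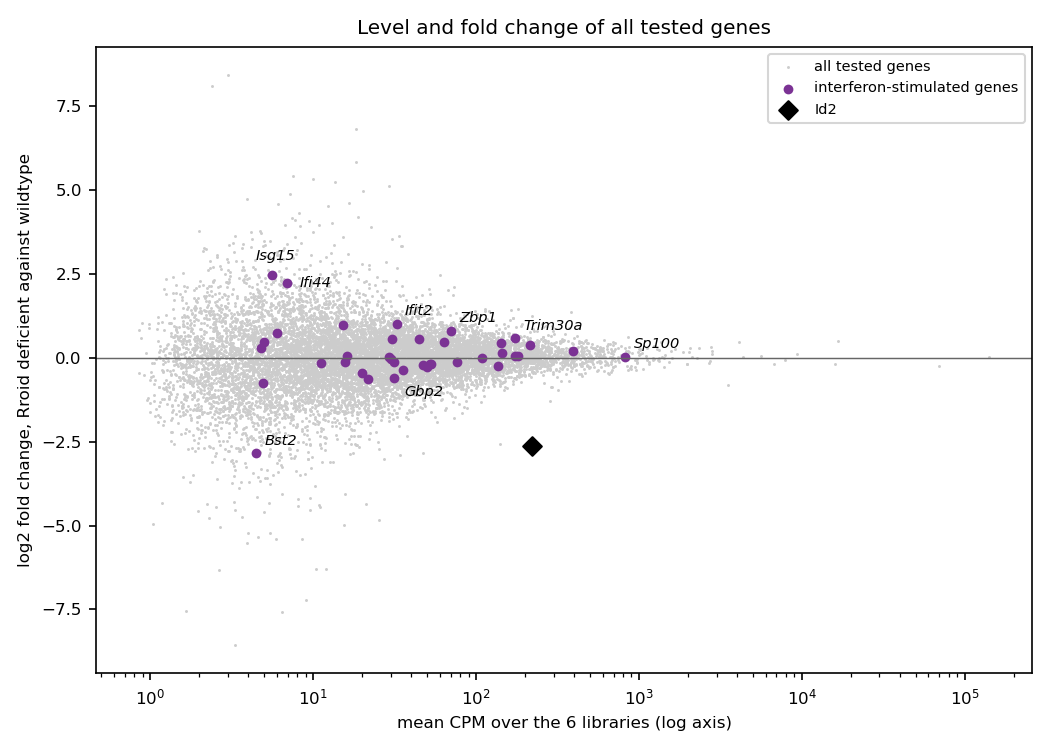
Mean CPM over the 6 libraries (log axis) against log2 fold change for the 11724 tested genes (grey), the 38 tested members (purple) and Id2 (black). Members lie on both sides of 0, scarce ones such as Isg15 and Bst2 farthest out, and Id2 is at -2.62.

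Of the 4 sensors of foreign nucleic acid, Zbp1 did not overlap between genotypes and the others did. Zbp1, which binds Z-form nucleic acid and can start necroptosis, had 30.4, 59.8 and 62.3 CPM in wildtype libraries 1 to 3 and 108, 88.1 and 71.1 in deficient libraries 1 to 3. Every deficient library was above every wildtype library, with the closest pair at 62.3 and 71.1. The log2 fold change was 0.81 (SE 0.37, edgeR adjusted p = 0.914). It was 0.54 without wildtype library 1, and 0.38 without both wildtype 1 and deficient 1. Ddx58, which encodes the RNA sensor RIG-I, had 51.8, 163 and 151 CPM in wildtype libraries and 162, 172 and 160 in deficient ones. Wildtype 1 was the low one and the other 5 lay close together. Ifih1, which encodes the sensor of long double-stranded RNA MDA5, had 30.6 ± 11.9 and 29.9 ± 16.5 CPM. Dhx58, which encodes their relative LGP2, had 11.7 ± 5.79 and 10.6 ± 9.10.

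The interferon regulatory factors, which carry the signal to the promoters, overlapped between genotypes in all 5 cases. Irf1, an early target of interferon gamma, had 55.4, 160 and 112 CPM in wildtype libraries and 97.7, 110 and 116 in deficient ones. The wildtype libraries held both its lowest and its highest value, and the log2 fold change was -0.01 (95% interval -0.82 to 0.79). Irf2, which can oppose Irf1 at shared sites, had 79.8 ± 13.8 and 73.3 ± 15.0 CPM. Irf3, the latent factor that sensors activate and that is not itself strongly induced, had 53.1 ± 24.7 and 73.5 ± 28.1 CPM. Irf7, the inducible amplifier of type I interferon, had 84.6, 45.0 and 39.95 CPM in wildtype libraries and 40.5, 72.1 and 37.5 in deficient ones, with 1 high library in each genotype. Irf9, a DNA-binding partner of STAT proteins, had 50.6 ± 12.8 and 43.4 ± 3.09 CPM.

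Of the 15 antiviral effectors 12 were tested, 7 with a positive and 5 with a negative fold change, and Bst2 alone did not overlap between genotypes. Sp100, a component of nuclear bodies that restricts DNA viruses, was the most abundant member per length, at 108 ± 6.83 and 111 ± 11.5 CPM per kilobase of annotated exon (RPKM). It had 848, 842 and 756 CPM in wildtype libraries and 913, 856 and 743 in deficient ones. The values interleaved, and the log2 fold change was 0.04 (95% interval -0.30 to 0.37). Samhd1, which degrades the nucleotides that viruses need, had 369, 382 and 345 CPM in wildtype libraries and 490, 368 and 404 in deficient ones. Its log2 fold change was 0.20 (SE 0.18, edgeR adjusted p = 0.930), and only deficient 2 lay within the wildtype range. Eif2ak2, the RNA-activated kinase PKR that stops translation, had 54.7 ± 8.49 and 45.1 ± 6.69 CPM, and the RNA-editing enzyme gene Adar had 55.6 ± 10.7 and 48.7 ± 25.6. Part of the annotated exon sequence of Adar, 16.8%, lies over the exons of Chrnb2 on the other strand.

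Bst2 had the largest negative fold change of the members. It encodes tetherin, which holds budding virus particles at the cell surface. The values were 11.2, 6.44 and 5.98 CPM in wildtype libraries (75, 60 and 38 counts) and 0.288, 0.163 and 2.77 in deficient ones (2, 1 and 20 counts). Each deficient library was below each wildtype one, and the first pair of deficient libraries was below the CPM of 3 counts. The difference on the log2 scale was -2.85 (SE 1.28, 95% interval -5.70 to 0.0038, edgeR adjusted p = 0.914). It was -5.02 without deficient library 3 and -2.06 without wildtype 1 and deficient 1. Bst2 is also a marker of plasmacytoid dendritic cells. Of 7 other markers of those cells, Klk1 and Ly6d were at 0 in every library and Siglech had 1 count in wildtype 2 and none elsewhere. Tcf4 had 58.9 ± 26.4 CPM in wildtype libraries and 34.2 ± 7.99 in deficient ones. Cox6a2, on the other hand, had 8, 13 and 9 counts in wildtype libraries against 5, 57 and 66, and Pacsin1 had 0, 0 and 2 counts against 12, 1 and 16. Ccr9 had at most 6 counts in a library, and the 7 markers summed to 31.2 to 83.8 and 38.2 to 45.1 CPM. In bulk samples such as these, fewer cells of a type and less RNA per cell cannot be told apart.

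The Ifit genes, whose proteins bind viral RNA and block its translation, did not share 1 direction. Ifit2 had 7.64, 33.8 and 23.1 CPM in wildtype libraries and 57.1, 44.9 and 29.0 in deficient ones. Only wildtype 2 lay within the deficient range, and the log2 fold change was 1.02 (SE 0.59, edgeR adjusted p = 0.925), but 0.60 without wildtype 1 and 0.37 without wildtype 1 and deficient 1. Ifit3, its direct neighbour among protein-coding genes, had 0, 6.77 and 5.82 CPM in wildtype libraries and 4.90, 7.01 and 5.53 in deficient ones. Ifit1, further along the same cluster, had 5.09, 10.6 and 2.83 CPM in wildtype libraries and 0, 4.89 and 6.08 in deficient ones. Thus both were at 0 in 1 library, Ifit3 in wildtype 1 and Ifit1 in deficient 1. How reads were assigned among near-identical Ifit copies is uncertain.

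Values of the oligoadenylate synthetase genes and their Oasl relatives were uneven between libraries. The synthetases make the second messenger that activates RNase L. Oas3 had 7.49, 39.3 and 52.1 CPM in wildtype libraries and 23.8, 33.0 and 33.2 in deficient ones, with both extremes in wildtype. Oas2, its neighbour, had no count in any library, which allows at most 0.322 to 0.489 CPM. Oasl1 had 4.49 ± 3.92 and 7.52 ± 7.47 CPM. Oasl2 had 0, 8.37 and 4.56 CPM in wildtype libraries and 11.2, 0.163 and 4.42 in deficient ones, so that each genotype held a library with hardly a read and a library well above it. The dynamin-like gene Mx1, whose allele is defective in most laboratory strains, had 15.8 ± 1.13 and 16.4 ± 8.40 CPM. Mx2 had 0, 2 and 1 counts in wildtype and none in deficient libraries, and the exonuclease gene Isg20 had 7, 9 and 19 counts against 0, 0 and 13. Isg20, Mx2, Oas2 and Ifi27l2a were the 4 members that did not pass the filter.

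In the system built on the ubiquitin-like protein ISG15 and on ubiquitin or ADP-ribose marks, 5 fold changes were positive and 2 negative, and Trim30a alone did not overlap between genotypes. Trim30a, a ubiquitin ligase gene that is induced by interferon, had 135, 159 and 121 CPM in wildtype libraries and 166, 246 and 214 in deficient ones. All deficient libraries were above all wildtype libraries, the closest pair being 159 and 166. The difference on the log2 scale was 0.59 (SE 0.24, 95% interval 0.07 to 1.11, edgeR adjusted p = 0.914, DESeq2 adjusted p = 0.522). Trim30a has close paralogs, and how reads were assigned among them is uncertain. Isg15 itself had 0, 4.08 and 0.944 CPM in wildtype libraries and 0.865, 19.4 and 8.30 in deficient ones. Deficient 1 lay among the wildtype values, and the other deficient libraries lay above them. The log2 fold change of Isg15 was 2.48 (SE 1.54, edgeR adjusted p = 0.925), 1.43 without deficient library 2 and 4.28 without wildtype library 2.

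Other members of that system had overlapping libraries. Usp18, which removes ISG15 and damps the type I receptor, had 26.8, 11.7 and 10.9 CPM in wildtype libraries and 13.8, 18.4 and 12.9 in deficient ones. Its highest value was in wildtype 1, the library in which Isg15 had no count. Trim25, the ubiquitin ligase that acts on RIG-I, had 129, 116 and 163 CPM in wildtype libraries and 104, 213 and 136 in deficient ones, with both extremes in deficient libraries (log2 fold change 0.15, 95% interval -0.51 to 0.82).

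Parp14, Dtx3l and Parp9 are direct neighbours on 1 chromosome, and the DTX3L ligase works in a complex with the ADP-ribosyltransferase PARP9. Parp14, another ADP-ribosyltransferase gene, had 133, 203 and 219 CPM in wildtype libraries and 283, 241 and 200 in deficient ones (log2 fold change 0.39 with SE 0.25, adjusted p = 0.925 by edgeR). Without wildtype 1 it was 0.19. Parp9 had 16.5, 38.7 and 53.8 CPM in wildtype libraries and 72.8, 44.5 and 43.0 in deficient ones. Dtx3l had 204, 139 and 103 CPM in wildtype libraries and 154, 140 and 83.9 in deficient ones. Wildtype library 1 was thus lowest for Parp14 and Parp9 and highest for Dtx3l. Over the 6 libraries log2(CPM + 1) of Parp9 and Parp14 had a Pearson r of 0.96, and that of Parp9 and Dtx3l one of -0.50, as a description of libraries that share depth and amplification. Of the exon bases of Parp9, 9.4% overlap Dtx3l on the other strand, so some of their reads cannot be assigned with certainty.

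**Figure D5:**
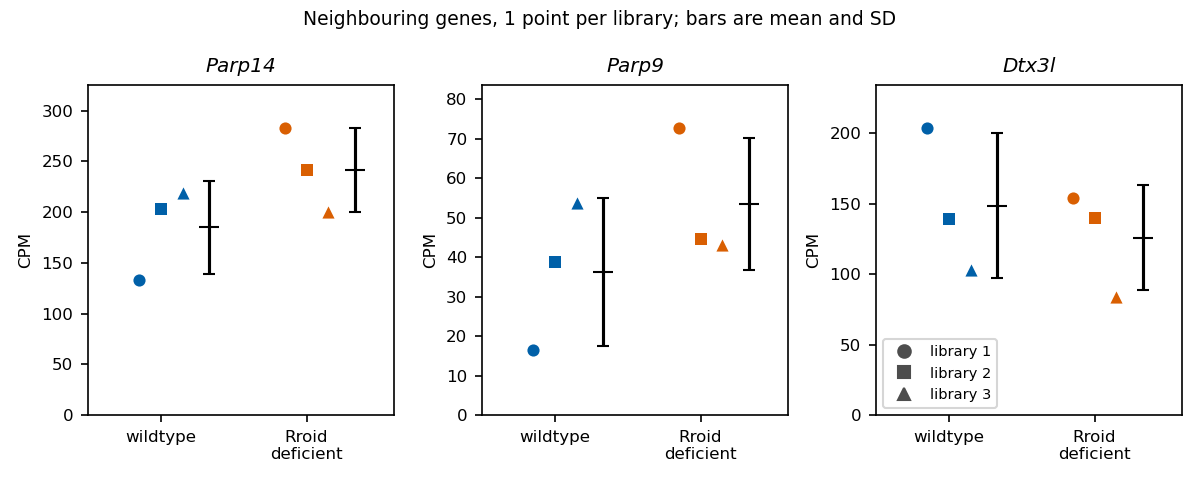
CPM of Parp14, Parp9 and Dtx3l in each library (marker shape for the library number), with mean and SD per genotype (n = 3) as black bars. Wildtype library 1 is the lowest point for Parp14 (133) and Parp9 (16.5) and the highest for Dtx3l (204).

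The interferon-inducible GTPases, which attack the membranes around intracellular microbes, gave 4 positive and 2 negative fold changes. Gbp2, a guanylate-binding protein gene, had 39.7, 34.5 and 38.2 CPM in wildtype libraries and 24.6, 21.2 and 28.8 in deficient ones. Each deficient library was below each wildtype one, and the spread within each genotype was small. The log2 fold change was -0.59 (SE 0.43, edgeR adjusted p = 0.925). Its family members in the same cluster did not do so: Gbp3 had 17.2, 35.9 and 20.3 CPM in wildtype libraries and 58.2, 14.8 and 36.5 in deficient ones. Gbp7 had 132, 223 and 174 CPM in wildtype libraries and 103, 249 and 202 in deficient ones, with both extremes in deficient libraries and a log2 fold change of 0.07 (95% interval -0.68 to 0.81). These paralogs resemble each other, which makes the assignment of reads uncertain. Exons of Gbp7 also overlap the pseudogene Gm43802 on the same strand, over 11.3% of their length.

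The immunity-related GTPases overlapped between genotypes. Ifi47, also known as IRG-47, was the second most abundant member per length (68.1 ± 5.45 and 71.3 ± 9.27 RPKM). Its libraries held 168, 182 and 155 CPM in wildtype libraries and 160, 203 and 166 in deficient ones, which interleaved, and its log2 fold change was 0.07 (95% interval -0.41 to 0.54). Igtp had 29.0 ± 8.54 and 29.6 ± 13.0 CPM, and Irgm1, a regulator of the other IRG proteins, had 23.0 ± 12.3 and 16.7 ± 4.75, with 95% intervals of the log2 fold change of -1.15 to 1.21 and -1.87 to 0.95. Igtp and Gbp7 were low in the same libraries, wildtype 1 and deficient 1, with a Pearson r of 0.97 over the 6 libraries. Exons of Igtp overlap those of Irgm2 over 8.01% of their length.

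Of the 5 remaining induced genes, Ifi44 and Rtp4 had all deficient libraries above the wildtype ones. Ifi44 had 2.55, 1.83 and 2.83 CPM in wildtype libraries (17, 17 and 18 counts) and 3.60, 20.1 and 10.5 in deficient ones (25, 123 and 76 counts). The wildtype libraries were tightly grouped and the deficient ones ranged widely, with deficient 1 close to the wildtype values. The log2 fold change was 2.24 (SE 0.96, edgeR adjusted p = 0.914, DESeq2 adjusted p = 0.521), and 1.55 without deficient library 2. Rtp4, which encodes a receptor transporter protein, had 4.64, 13.2 and 13.1 CPM in wildtype libraries and 13.5, 25.0 and 22.1 in deficient ones. The gap between wildtype 2 and deficient 1 was small, and the log2 fold change of Rtp4 was 0.97 (SE 0.67, edgeR adjusted p = 0.925). Without wildtype library 1 it was 0.61. Of the exon bases of Rtp4, 13.9% overlap Gm45338 on the same strand, so some of its reads cannot be assigned with certainty. Ifi35 had 26.5 ± 6.59 and 17.2 ± 7.95 CPM, and Xaf1, a proapoptotic partner of XIAP, had 40.3 ± 4.31 and 31.5 ± 25.1, with deficient 2 at 7.83. Exons of Ifi35 overlap those of Gm11626 on the other strand over 16.8% of their length. Ifi27l2a had 0 to 4 counts per library.

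Per length, the tested members lay a little above the middle of expressed genes. Their median over all libraries was 9.28 RPKM, against 6.20 for the 11262 tested genes with an annotated length, and 26 of 38 were above that value. The 8 most abundant were, in order, Sp100, Ifi47, Samhd1, Trim30a, Gbp7, Irf1, Trim25 and Dtx3l. Samhd1 and Trim30a were at 42.9 and 42.2 RPKM over all libraries, but their order differed by genotype. Samhd1 was the higher in wildtype (39.9 ± 2.05 and 33.7 ± 4.64) and the lower in deficient libraries (46.0 ± 6.86 and 50.8 ± 9.72). Irf1, Trim25 and Dtx3l, at 27.3, 25.0 and 24.0 RPKM over all libraries, did not differ beyond their spread. Sp100, at 109 RPKM, lay above Ifi47, at 69.7, by more than the SD of either. The lowest tested members were Oasl2 at 0.752 and Ifi44 at 1.12 RPKM.

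The genes that carry the interferon signal were compared in the same fit. Of 15 tested receptor and JAK-STAT genes 0 passed in edgeR, and 3 had an unadjusted p under 0.05 (5.29% of all genes). Of the fold changes, 8 were positive and 7 negative. Ifngr2 and Ifnlr1, also in that list, had no count in any library. Whether their transcripts were absent or their reads were not assigned to them was not tested. Stat2, which joins IRF9 in type I interferon signalling, had 50.8 ± 16.3 CPM in wildtype libraries and 48.0 ± 10.8 in deficient ones. The 2 genes with the smallest p were Jak2, a kinase of the interferon gamma receptor, and Ptpn6, the phosphatase SHP-1 that restrains JAK signalling. Jak2 had 170, 114 and 119 CPM in wildtype libraries and 72.4, 71.6 and 92.4 in deficient ones (edgeR adjusted p = 0.906). Ptpn6 had 73.4, 42.1 and 70.6 CPM in wildtype libraries and 141, 98.7 and 99.3 in deficient ones (edgeR adjusted p = 0.906). Of the 15 tested receptor and JAK-STAT genes, 2 had all deficient libraries above all wildtype ones, Ptpn6 and Pias1, where 6.03% of all tested genes did so. All lay below for 2, Jak2 and Ptpn2, where 6.33% of all tested genes did so.

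Among the interferons themselves, 1 of the 10 genes in the tables was tested, Ifng, at 69.2 ± 13.5 and 77.4 ± 27.6 CPM. Of the rest, 8 had no count in any library, Ifnb1 among them. Of 13 tested genes of RNA and DNA sensing pathways 0 passed in edgeR, and 0 had an unadjusted p under 0.05. The smallest p were those of Rnaseh2b (77.7, 20.2 and 19.4 against 5.62, 9.30 and 23.1 CPM) and the adaptor gene Ticam1 (40.3, 30.9 and 24.4 against 98.0, 47.3 and 28.8 CPM). Tlr9 and Trex1, also in that list, had no count in any library. For these genes too, absent transcripts and reads that were not assigned were not told apart.

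A further 54 tested interferon-induced genes outside the set also held 0 that passed in edgeR, and 6 with an unadjusted p under 0.05, which 5.29% of all genes reached. Positive fold changes numbered 31 and negative ones 23, with a median of 0.15. All deficient libraries were above all wildtype libraries for 9 of the 54, where 6.03% of all tested genes did so, and below for 2, where 6.33% did. Ifi203, a DNA-binding protein gene of the p200 family, had 658, 523 and 562 CPM in wildtype libraries and 892, 821 and 709 in deficient ones (log2 fold change 0.47 with SE 0.17, adjusted p = 0.906 by edgeR). Epsti1 had 151, 152 and 138 CPM in wildtype libraries and 209, 227 and 216 in deficient ones (log2 fold change 0.56 with SE 0.20, adjusted p = 0.906 by edgeR). Neither gene overlapped between genotypes, with the closest libraries at 658 and 709 CPM for Ifi203 and at 152 and 209 for Epsti1.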

How the data were processed

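Per the labels' protocols, RNA of 6 libraries was amplified (Ovation RNA-Seq System V2, a kit that leaves strand unmarked) before single-read sequencing. The authors deposited raw counts, whole numbers of reads per Ensembl gene. Trimmomatic 0.33, TopHat2 2.1.0, HTSeq 0.6.1, DESeq2 and the builds NCBIM37 and mm9 are named in the submitters' processing notes; whether strand was used in counting is not stated there, which leaves overlapping and antisense genes uncertain. Rows that name no gene held 80.0% to 84.4% of the reads listed and were left out.

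Symbols were matched to Ensembl IDs through GENCODE M21 (GRCm38), which gave one to 32919 genes, as well as exon lengths and overlaps. Promoters are from RefSeq, GRCm38.p6; no protein sequence was used.

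Levels are CPM on TMM-scaled library sizes. Counts were fitted with edgeR 4.0.16 (R 4.3.3): TMM, filterByExpr, a quasi-likelihood test on genotype over all 6 libraries, adjusted over all tested genes, with a threshold of 0.05. SE were derived from the F statistic. Alternatives were RLE size factors, DESeq2 1.42.0 and limma-voom (limma 3.58.1) on the filtered genes, no filter, a filter of 10 counts or more in 3 libraries together with a mean of 2 CPM or more, leaving out each library, wildtype 1 and deficient 1 left out together, and the replicate number as a block. Counts of members without overlap between genotypes were repeated with other scalings and without those 2 libraries, chosen after seeing the data.

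The members and lists were chosen with earlier results of these data known, so no p is given over the set. Given library by library are members past the threshold or without overlap between genotypes, the 4 others of smallest p and the 8 most abundant per length; of the other pathway lists, the 2 of smallest p. Stat2, the cell markers given with values, the genes given by library beside these and the gene pairs were picked after their values were seen. Figures were drawn with matplotlib 3.10.9.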

Additional observations from a re-analysis of the deposited data

How the results depend on the processing

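No setting called a member: the count was 0 in all 13 alternative fits, with the smallest adjusted p of a named member at 0.521 (DESeq2, Ifi44). Over all genes, the 2 calls became 65 with DESeq2, 1 with limma-voom, 98 without a filter, 0 when any 1 library was left out, 0 with wildtype 1 and deficient 1 left out, and 0 with the replicate block. The median log2 fold change of the members lay between -0.04 and 0.11 in all of these fits. Of the 16 members given with a fold change by the naming rule, 10 kept its sign throughout. The other 6 changed sign: with each library left out in turn, Gbp7 ranged from -0.21 to 0.35, Irf1 from -0.34 to 0.37, Sp100 from -0.034 to 0.113, Ifi47 from -0.050 to 0.126, Trim25 from -0.18 to 0.36 and Dtx3l from -0.450 to 0.049. Gbp7 was at -0.043 and Irf1 at 0.052 with limma-voom, Irf1 at 0.11 with the replicate block, and Sp100 at -0.0049 with wildtype 1 and deficient 1 left out; the cause was not tested. With those 2 libraries left out, 16 members (42.1%) did not overlap between genotypes, where 37.5% of all genes did not, since fewer libraries are compared. Without TMM scaling the number was 4 (10.5%, against 12% of all genes). Libraries with the same number did not deviate together (Pearson r 0.00025, -0.017 and 0.020 over tested genes), and not every library correlated best with its own number. The labels do not say that a shared number marks a shared source, although wildtype 1 and deficient 1 both had the most tested genes at 0.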

Other observations

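The members did not vary as 1 block across the libraries. Over the 703 pairs of tested members, the Pearson r of log2(CPM + 1) across the 6 libraries had a median of 0.064, and 387 pairs (55.0%) were positive. The highest value was that of Ifit3 and Ddx58, at 0.992, both lowest in wildtype library 1, and the lowest that of Dhx58 and Gbp7, at -0.97. These are descriptions over few libraries that share depth and amplification. Wildtype library 1 held the lowest value of 14 of 38 members (36.8%), while it held the lowest of 29.2% of all tested genes. Deficient library 2 held the highest value of 13 members (34.2%, against 18.9% of all genes) and the lowest of 9 (23.7%, against 17.5%). Deficient library 1 held the highest of 11 (28.9%, against 24.4%) and the lowest of 6 (15.8%, against 26.6%). The coefficient of variation within a genotype had a median over members of 35.9% in wildtype and 31.8% in deficient libraries, beside 38.8% and 44.8% over all tested genes.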
